A study of Homo sapiens with 8 samples.

Results

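The genes described here build, hold and divide mitotic chromosomes: 56 of the 14884 genes measured on arrays of 8 clones of PC-3 cells, which come from a human prostate cancer. They were chosen by name. A gene was taken when its single symbol began with CENP, SMC1 to SMC6, NCAP, STAG1 to STAG3, SKA1 to SKA3, SPC24 or SPC25, CDCA2 to CDCA8, SGO1 or SGO2, or was 1 of 17 further symbols, and antisense symbols were left out. Name patterns gave 45 genes and the list of symbols 11. The 6 listed symbols NUF2, DSN1, ZWILCH, PDS5A, PDS5B and ANLN, and all symbols of the NCAP, SPC24 and SPC25 kind, were not analysed here, so condensin was read through SMC2 and SMC4 and cytokinesis mainly through ECT2. Each of the 56 genes was read by 1 probe set, and 49 of them are protein-coding.

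Of the 8 clonal isolates, 4 carried a p-Lenti vector with RWDD4 (clones 17, 24, 5 and 6) and 4 carried the empty p-Lenti vector (clones 2, 3, 4 and 5). All had been selected with the antibiotic marker of the vector, and total RNA of each was put on 1 Affymetrix array. Each sample is thus a single expanded clone, and the spread between samples is a spread between clones. Values are log2 levels deposited by the authors, which compare 1 gene between arrays and do not rank different genes.

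A kinetochore is the protein platform that joins a centromere to spindle microtubules. Its inner layer sits on nucleosomes that carry the histone variant CENP-A, and its outer layer grips the microtubule. Cohesin rings hold sister chromatids together until anaphase, condensin and topoisomerase II fold and untangle the chromatids, and a RhoA-driven ring then cuts the cell apart. Many genes of this machinery are transcribed in late S phase, G2 and mitosis, so in a culture their RNA follows the share of dividing cells as well as the level in each cell. In RNA from whole cultures these cannot be told apart.

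RWDD4 itself was at 10.42, 10.45, 10.46 and 9.87 in RWDD4 clones 17, 24, 5 and 6, against 6.64, 7.58, 7.21 and 8.0 in control clones 2, 3, 4 and 5. The difference was 2.94 (SE 0.25), for which limma gave an adjusted p of 5.98e-05. Exact permutation gave 0.0286, the lowest p possible with 4 clones on each side. Across all genes, array values correlated at 0.991 to 0.993 between RWDD4 clones, 0.98 to 0.992 between control clones and 0.913 to 0.974 between groups. The epithelial markers measured, KRT8, KRT18, KRT19 and EPCAM, averaged 8.41 to 8.52 in RWDD4 clones and 8.67 to 8.87 in control clones. Of the blood markers, CD14 and CD68 were measured, and their levels were unlike. CD14 had means of 4.09 in RWDD4 clones and 4.51 in control clones, under 4.92, the median of all probe sets. CD68 had means of 10.2 in RWDD4 clones and 10.6 in control clones. The stromal markers PECAM1, VWF and THY1 averaged 5.29 to 5.41 in RWDD4 clones and 5.51 to 5.71 in control clones. Among the stromal markers VWF had means of 4.53 in RWDD4 clones and 4.84 in control clones, also under 4.92. Of these 9 marker genes 7 fell, the scale has no true 0, and the part of these markers in the results below was not tested. Defining markers such as CDH1, PTPRC, CD3E and COL1A1 were not analysed here. The luminal genes KLK3 and KLK2, at 5.76 and 5.75 in RWDD4 clones and 5.81 and 5.83 in control clones, did not pass the test.

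Promoters are shown first because cell cycle promoters are known for short elements that a reader can look for. These are the CHR, with the letters TTTGAA, which binds the DREAM and MuvB complexes, the CCAAT box, which binds NF-Y, and the E2F site, searched here as TTTCCCGC, TTTCGCGC, TTTGCCGC and TTTGGCGC. Each was searched on both strands in the 300 bases that run from 250 before to 50 after a start site (RefSeq, GRCh38.p14). Of the 56 genes 46 had 58 such promoters. The set below is shown because in these 5 genes a CHR begins within 5 bases of the annotated start. Each line holds 30 bases before and 30 after the start, 5′ to 3′ on the gene's strand, with the CHR in capitals (TTCAAA where it lies on the other strand).
NDC80, chr18:2571527-2571586, plus strand: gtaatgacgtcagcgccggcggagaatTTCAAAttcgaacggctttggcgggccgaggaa
SMC2, chr9:104094279-104094338, plus strand: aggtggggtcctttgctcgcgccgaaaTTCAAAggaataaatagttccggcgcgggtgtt
SKA3, chr13:21176523-21176582, minus strand: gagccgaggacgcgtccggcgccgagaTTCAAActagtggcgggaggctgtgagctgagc
CDCA3, chr12:6851257-6851316, minus strand: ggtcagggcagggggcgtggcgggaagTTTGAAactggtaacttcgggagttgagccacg
CENPN, chr16:81007184-81007243, plus strand: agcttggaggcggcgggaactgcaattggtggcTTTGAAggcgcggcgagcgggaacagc

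In NDC80, SMC2, SKA3 and CDCA3 the element starts 3 bases before the annotated start, and in CENPN it starts 3 bases after it. Of the 58 promoters 5 (8.62%) had a CHR that near, against 0.672% of all 35116 promoters and 0.585% of the promoters of the genes tested. The 5 genes were picked out by this position, so the share is a description and not a test. Of all 46 genes with a promoter 35 were called higher, and so were these 5, by 6.09-fold for NDC80, 6.05-fold for SMC2, 3.02-fold for SKA3, 2.36-fold for CENPN and 1.30-fold for CDCA3, whose groups overlapped.

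The next set holds the genes with the largest rise and the largest fall among the 56. Between them stand the proliferation marker MKI67 and the cytokinesis gene ECT2. All 3 kinds of element are in capitals (ATTGG is CCAAT on the other strand).
TOP2A, chr17:40417847-40418146, minus strand: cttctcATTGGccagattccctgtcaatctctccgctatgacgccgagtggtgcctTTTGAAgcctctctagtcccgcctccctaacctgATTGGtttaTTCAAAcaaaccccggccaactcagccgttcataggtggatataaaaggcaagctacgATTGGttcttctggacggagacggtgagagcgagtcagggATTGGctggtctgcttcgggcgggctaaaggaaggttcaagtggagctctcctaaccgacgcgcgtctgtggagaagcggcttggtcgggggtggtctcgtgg
MKI67, chr10:128126374-128126673, minus strand: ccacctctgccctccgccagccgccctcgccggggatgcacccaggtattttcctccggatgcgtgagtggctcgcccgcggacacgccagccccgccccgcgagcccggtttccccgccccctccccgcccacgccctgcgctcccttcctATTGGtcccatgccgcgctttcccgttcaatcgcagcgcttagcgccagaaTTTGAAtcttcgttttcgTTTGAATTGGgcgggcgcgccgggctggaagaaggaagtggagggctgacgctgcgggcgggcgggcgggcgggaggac
ECT2, chr3:172750476-172750775, plus strand: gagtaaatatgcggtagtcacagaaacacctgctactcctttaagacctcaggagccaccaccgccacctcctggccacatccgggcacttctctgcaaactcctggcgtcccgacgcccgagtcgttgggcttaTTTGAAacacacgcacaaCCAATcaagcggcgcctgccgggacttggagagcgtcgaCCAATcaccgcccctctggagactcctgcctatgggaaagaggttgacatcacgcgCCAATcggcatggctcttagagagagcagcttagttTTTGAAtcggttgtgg
CENPX, chr17:82022829-82023128, minus strand: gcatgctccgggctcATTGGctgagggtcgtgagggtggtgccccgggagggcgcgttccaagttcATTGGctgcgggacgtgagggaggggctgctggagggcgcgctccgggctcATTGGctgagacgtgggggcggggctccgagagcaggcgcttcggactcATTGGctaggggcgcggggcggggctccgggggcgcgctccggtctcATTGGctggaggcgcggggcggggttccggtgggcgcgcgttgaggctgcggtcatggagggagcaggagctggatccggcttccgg

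The TOP2A promoter held 2 CHR and 4 CCAAT matches, that of MKI67 2 and 2 (the second CHR and the second CCAAT match share an A), and the ECT2 promoter shown 2 and 3. The CENPX promoter held 5 CCAAT matches and no CHR letters. Of the 3 genes called lower 1 held a CHR, namely CDCA4, with 1 CCAAT match beside it. The promoters of CKAP2 and CENPI, which rose 5.53-fold and 4.89-fold, held none of the 3 kinds of element. Over the 58 promoters a CHR was found in 36.2%, against 15.2% of all promoters, a CCAAT box in 50%, against 34.6%, and an E2F site in 17.2%, against 3.31%. A CHR and a CCAAT box stood together in 22.4%, against 5.9%. All promoters here include those of genes not tested. Over promoters of the genes tested, the shares were 12.1% for a CHR, 34.3% for a CCAAT box and 4.11% for an E2F site. A CHR and a CCAAT box stood together in 4.86% of them. Of the 45 promoters of the 35 genes called higher 37.8% held a CHR, and of the 10 promoters of the 8 genes not past the test 30%. By gene, a CHR was found in 16 of 35 and in 2 of 8, as ZWINT has 2 overlapping promoters with the same match. These letters were thus not confined to the genes that rose. A match is only a run of letters and does not show that a factor binds there.

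Of the 56 genes 40 were higher in the RWDD4 clones by limma at an adjusted p under 0.05 (71.4%, against 25.1% of all genes tested), 3 were lower (5.36%, against 21.6%) and 13 did not pass. In either direction 43 passed (76.8%, against 46.7%). The median difference was 1.13 on the log2 scale, against -0.08 over all genes. At least 2-fold higher were 29 of the 56 (51.8%, against 9.74%), and at least 4-fold higher 9 (16.1%, against 0.591%). No member was 2-fold lower, against 0.417% of all genes. The lowest RWDD4 clone lay above the highest control clone in 41 genes (73.2%, against 23.7%), and the highest RWDD4 clone lay below the lowest control clone in 2 (3.57%, against 21.1%).

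**Figure D1:**
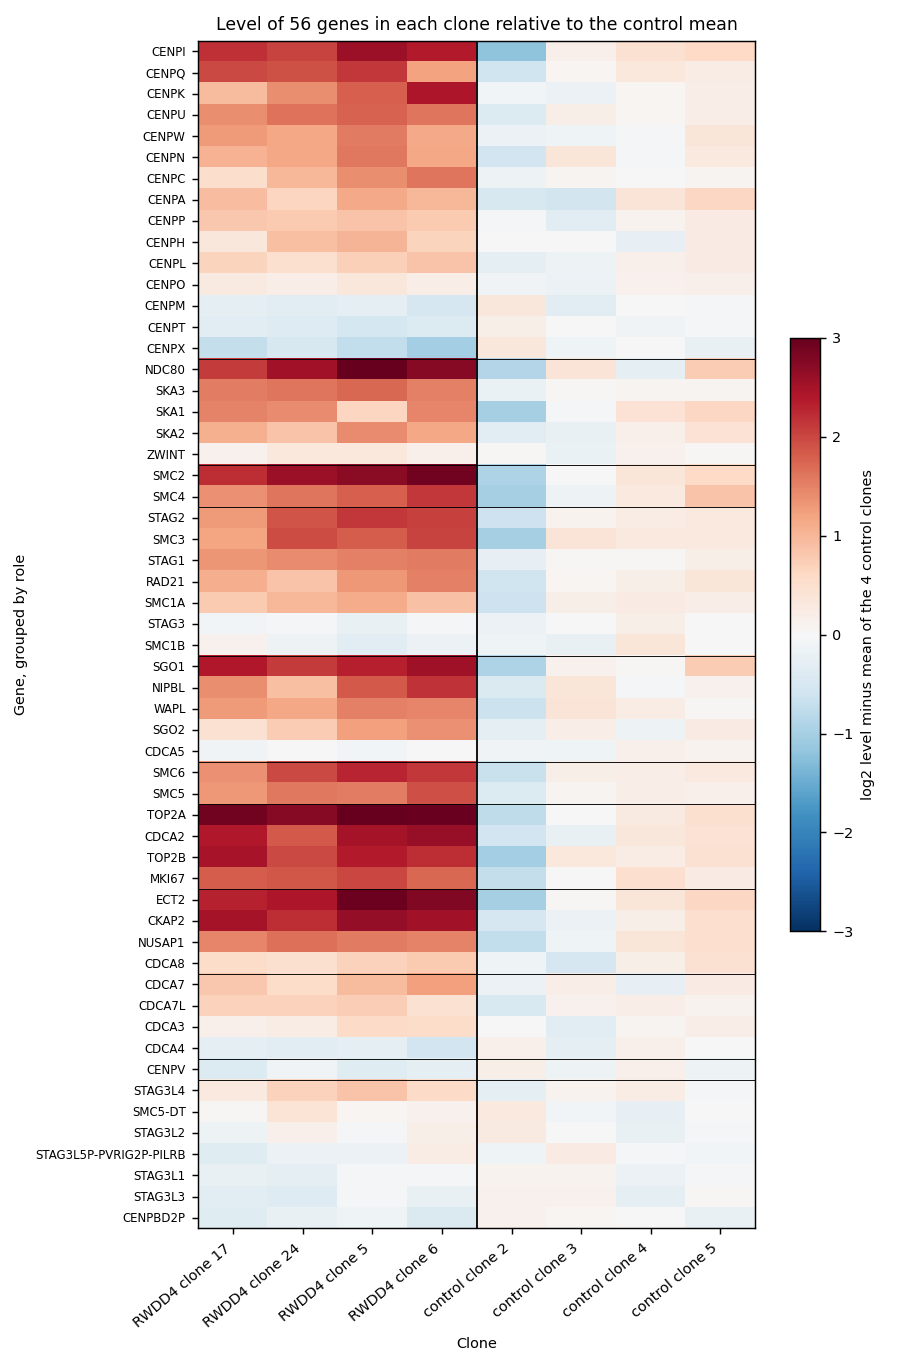
The level of each of the 56 genes in each clone, as the log2 level minus the mean of the 4 control clones, with genes in rows by role and clones in columns, and with colours capped at 3. The left block of RWDD4 clones is red in most rows, and control clone 2 is the bluest column of the right block.

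**Figure D2:**
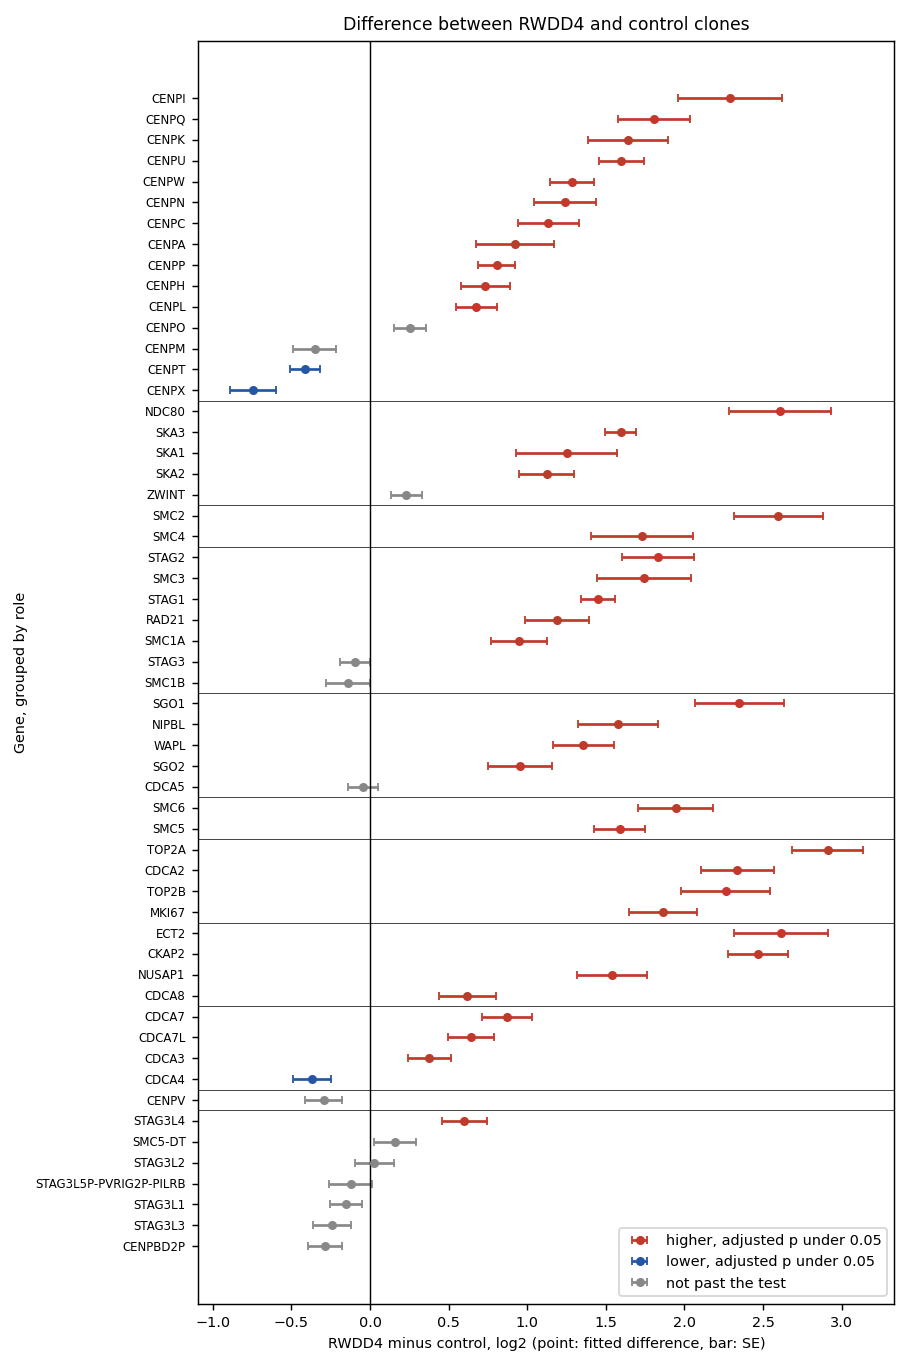
Fitted difference between RWDD4 and control clones on the log2 scale (points) with its standard error (bars) for the 56 genes, grouped by role. The 40 genes called higher are red, the 3 called lower blue and the 13 others grey, and the points run from -0.74 for CENPX to 2.91 for TOP2A.

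The clones of each group did not stand equally. Taken as the median over the 56 genes of the level minus the control mean, RWDD4 clones 17, 24, 5 and 6 lay at 0.94, 0.90, 1.27 and 1.19, and control clones 2, 3, 4 and 5 at -0.30, 0.01, 0.15 and 0.22. The same median over all genes ran from -0.09 to -0.06 in RWDD4 clones and from -0.02 to 0.02 in control clones. The median level over all genes went the other way, at 6.09 to 6.13 in RWDD4 clones and 5.89 to 6.03 in control clones. It was lowest in control clone 2. Control clone 2 had the lowest level of the control clones in 35 of the 56 genes (62.5%, against 35.7% of all genes). The SD was larger among control than among RWDD4 clones in 48 of 56 (85.7%, against 64.0%). Without control clone 2 the median difference was 0.95, 39 of the 40 higher calls were kept, and CDCA3 was the gene lost.

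One alternative ended every call. When the main direction along which clones of the same group varied entered the fit as a covariate, limma called 0 of the 56 genes, with 16 higher and 0 lower at an unadjusted p under 0.05, and the median difference was 0.33. The loss was general: of all 14884 genes 0 were called higher and 1 lower, with 1910 (12.8%) at an unadjusted p under 0.05 in either direction. RWDD4 then lay at 1.88 with an adjusted p of 0.159. The groups did not overlap along that direction, with 0.60 to 1.09 in RWDD4 clones and -1.77 to -0.37 in control clones. The covariate thus carried part of the group difference, so this fit cannot separate that direction from the group.

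In the inner kinetochore 11 of 15 genes rose and 2 fell (median 0.92), and subunits of 1 sub-complex moved by unequal amounts. CENPA, the histone H3 variant that marks the centromere, was at 9.26, 8.99, 9.47 and 9.34 in RWDD4 clones 17, 24, 5 and 6, against 7.87, 7.80, 8.72 and 8.97 in control clones 2, 3, 4 and 5. It rose by 0.92 (SE 0.25, adjusted p 0.0113), and the highest control clone came within a few hundredths of the lowest RWDD4 clone. CENPC, which ties CENP-A nucleosomes to the outer layer, rose by 1.13, with levels of 5.11 to 6.17 in RWDD4 clones against 4.41 to 4.66 in control clones.

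Among CENP-H, CENP-I, CENP-K and CENP-M, which form 1 sub-complex, CENPI rose most. Its levels were 8.55, 8.40, 8.92 and 8.75 in RWDD4 clones 17, 24, 5 and 6, against 5.15, 6.52, 6.81 and 6.97 in control clones 2, 3, 4 and 5. It rose 4.89-fold, by 2.29 (SE 0.33, adjusted p 0.000366). CENPK rose by 1.64 and CENPH by 0.73. CENPM lay at 7.81 to 8.04 in RWDD4 clones and 7.99 to 8.67 in control clones, a difference of -0.35 that did not pass (adjusted p 0.0524) but was called lower under 6 of the 18 alternatives.

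CENP-O, CENP-P, CENP-Q and CENP-U belong to a second sub-complex, which supports chromosome alignment. CENPQ and CENPU rose by 1.81 and 1.60, and CENPP by 0.81. CENPO was at 9.16, 9.07, 9.22 and 9.08 in RWDD4 clones 17, 24, 5 and 6, against 8.77, 8.70, 9.02 and 9.03 in control clones 2, 3, 4 and 5. Its groups did not overlap, yet the difference of 0.25 (SE 0.10) did not pass (adjusted p 0.0633). CENPN, which reads the CENP-A nucleosome, and its partner CENPL rose by 1.24 and 0.68.

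CENP-T, CENP-W and CENP-X are histone-fold proteins, and their genes moved in opposite directions. CENPW rose by 1.28, with levels of 8.03 to 8.45 in RWDD4 clones against 6.71 to 7.26 in control clones. CENPT, which extends outward to recruit the NDC80 complex, was at 7.67, 7.61, 7.47 and 7.60 in RWDD4 clones 17, 24, 5 and 6, against 8.18, 7.98, 7.89 and 7.96 in control clones 2, 3, 4 and 5. It fell by 0.41 (SE 0.09, adjusted p 0.0049), 1.33-fold, without overlap. CENPX, which also works with the DNA repair helicase FANCM, was at 10.18, 10.40, 10.14 and 9.86 in RWDD4 clones 17, 24, 5 and 6, against 11.24, 10.77, 10.88 and 10.67 in control clones 2, 3, 4 and 5. It fell by 0.74 (SE 0.15, adjusted p 0.00214), 1.68-fold, and every RWDD4 clone lay below every control clone.

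**Figure D3:**
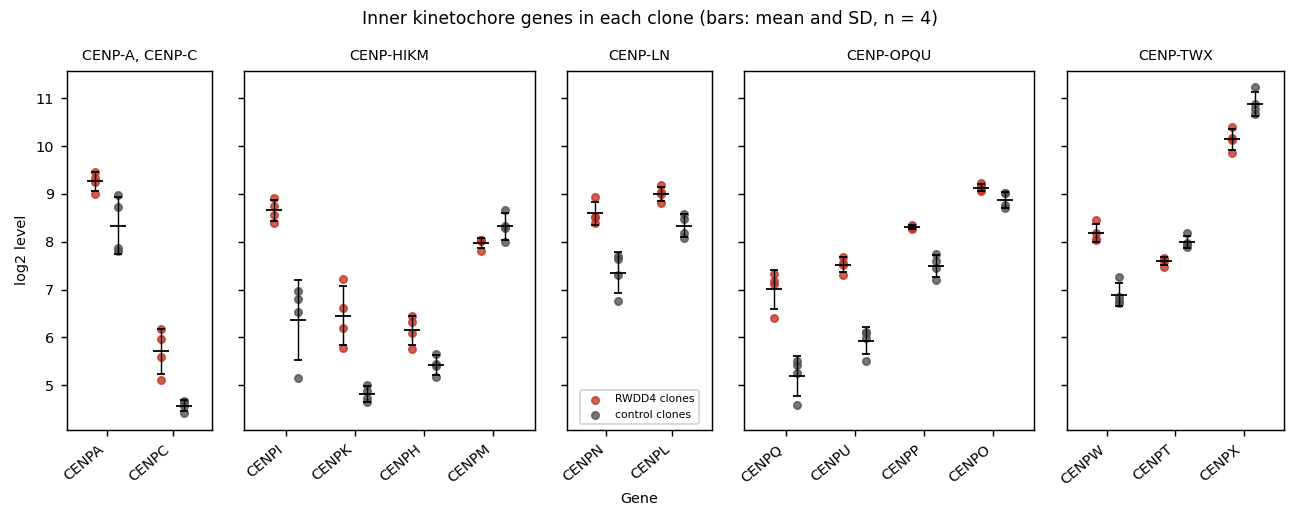
Log2 level of 15 inner kinetochore genes in each RWDD4 clone (red) and control clone (grey), with mean and SD, grouped by sub-complex. Heights of different genes are not comparable, and within a gene the red points lie above the grey ones except for CENPM, CENPT and CENPX.

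Unequal change inside these sub-complexes was tested on the difference between 2 genes within each array, over all 16 pairs, with exact two-sided permutation of the clones. The pairs were set up after the values had been seen. In 12 of 16 pairs the exact permutation p was 0.0286, the smallest possible, or 0.0381 adjusted over the 16. Pairs share genes, and the adjusted value depends on how many pairs reach that smallest p. CENPW exceeded CENPX by 2.03 (SE 0.27) and CENPT by 1.70 (SE 0.21). The RWDD4 clones lay wholly above the control clones for CENPW and wholly below them for CENPT and CENPX. The p of CENPW against either was therefore fixed by the single genes and adds nothing to them. CENPI exceeded CENPM by 2.64 (SE 0.54), and CENPU exceeded CENPO by 1.34 (SE 0.16). CENPI against CENPK, at 0.65 (SE 0.46), and CENPQ against CENPU, at 0.21 (SE 0.23), differed by less than 2 standard errors, with exact p of 0.286 and 0.371. CENPN against CENPL, at 0.56 (SE 0.22), and CENPT against CENPX, at 0.33 (SE 0.14), had an exact p of 0.0857.

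In the outer kinetochore 4 of 5 genes rose and none fell (median 1.25). NDC80, the microtubule-gripping subunit whose start site is shown above, was at 8.0, 8.43, 8.99 and 8.63 in RWDD4 clones 17, 24, 5 and 6, against 5.02, 6.30, 5.63 and 6.67 in control clones 2, 3, 4 and 5. It rose 6.09-fold, by 2.61 (SE 0.32, adjusted p 0.000163), and the groups lay more than 1 log2 unit apart. The SKA proteins load onto NDC80 and follow shortening microtubules. SKA3 rose by 1.59 (SE 0.10, adjusted p 4.61e-05), SKA1 by 1.25 and SKA2 by 1.12. SKA1 was at 7.97 in RWDD4 clone 5, next to 7.94 in control clone 5, and at 8.74 to 8.81 in the other RWDD4 clones. ZWINT, which links the outer kinetochore to the spindle checkpoint, lay at 9.07, 9.26, 9.24 and 9.09 in RWDD4 clones 17, 24, 5 and 6, against 8.97, 8.73, 9.07 and 8.97 in control clones 2, 3, 4 and 5. Its groups all but touched, and the difference of 0.23 (SE 0.10) did not pass (adjusted p 0.0770).

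Both measured subunits of condensin rose. SMC2, an arm of the ATPase shared by condensin I and II, was at 7.40, 7.75, 7.88 and 8.07 in RWDD4 clones 17, 24, 5 and 6, against 4.24, 5.16, 5.53 and 5.78 in control clones 2, 3, 4 and 5. It rose by 2.60 (SE 0.28), 6.05-fold, with an adjusted p of 9.75e-05. SMC4, the other arm, was at 9.19, 9.43, 9.61 and 9.95 in RWDD4 clones 17, 24, 5 and 6, against 6.82, 7.66, 8.12 and 8.67 in control clones 2, 3, 4 and 5. It rose by 1.73 (SE 0.33), 3.32-fold, with an adjusted p of 0.00167, and control clone 5 came closest to the RWDD4 clones.

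Of 7 genes of the cohesin ring 5 rose, and the 2 that did not are those of the meiotic ring. STAG2, the main mitotic STAG subunit, was at 7.40, 8.0, 8.23 and 8.18 in RWDD4 clones 17, 24, 5 and 6, against 5.49, 6.22, 6.35 and 6.42 in control clones 2, 3, 4 and 5. Its rise was 1.83 (SE 0.23), 3.56-fold, with an adjusted p of 0.000162. The ring subunits SMC3, RAD21 and SMC1A rose by 1.74, 1.19 and 0.95, and STAG1, the alternative to STAG2, by 1.45. SMC1B, the meiotic counterpart of SMC1A, lay at 3.69 to 4.15 in RWDD4 clones and 3.81 to 4.38 in control clones. STAG3, the meiotic STAG, was at 4.73, 4.74, 4.59 and 4.77 in RWDD4 clones 17, 24, 5 and 6, against 4.64, 4.80, 4.99 and 4.79 in control clones 2, 3, 4 and 5. Neither passed, at -0.14 (SE 0.14) and -0.10 (SE 0.10), and both had means under 4.92, the median of all probe sets.

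Of 5 cohesin regulators 4 rose. SGO1, the shugoshin that protects cohesin at centromeres, was at 8.68, 8.36, 8.59 and 8.82 in RWDD4 clones 17, 24, 5 and 6, against 5.34, 6.39, 6.30 and 7.04 in control clones 2, 3, 4 and 5. It rose by 2.35 (SE 0.28), 5.09-fold, with an adjusted p of 0.000142. NIPBL, which loads cohesin, and WAPL, which releases it, rose together by 1.57 and 1.36. SGO2, the second shugoshin, rose by 0.96, with levels of 4.82 to 5.74 in RWDD4 clones against 4.07 to 4.62 in control clones. CDCA5, or sororin, which shields cohesin from WAPL, lay at 7.67, 7.75, 7.69 and 7.76 in RWDD4 clones 17, 24, 5 and 6, against 7.66, 7.63, 7.91 and 7.86 in control clones 2, 3, 4 and 5. Its groups overlapped, and the difference of -0.04 (SE 0.09) did not pass (adjusted p 0.717). After quantile normalization CDCA5 was called lower, at -0.34.

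SMC5 and SMC6 form the third SMC complex, which acts in recombination and replication stress. SMC6 was at 6.26, 6.87, 7.17 and 7.01 in RWDD4 clones 17, 24, 5 and 6, against 4.22, 5.06, 5.08 and 5.19 in control clones 2, 3, 4 and 5, a rise of 1.94 (SE 0.24, adjusted p 0.00015). SMC5 was at 6.18, 6.45, 6.40 and 6.81 in RWDD4 clones 17, 24, 5 and 6, against 4.46, 4.95, 5.07 and 5.02 in control clones 2, 3, 4 and 5, a rise of 1.59 (SE 0.16, adjusted p 7.85e-05). No RWDD4 clone overlapped a control clone in either gene. SMC5-DT, a non-coding transcript that starts on the opposite strand so that its promoter window shares 203 of 300 bases with that of SMC5, lay at 5.01 to 5.37 in RWDD4 clones and 4.73 to 5.27 in control clones, a difference of 0.16 (SE 0.13) that did not pass. Whether its change differs from that of SMC5 was not tested.

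All 4 genes of chromosome structure rose (median 2.30). TOP2A, the topoisomerase II of dividing cells, was at 9.89, 9.71, 10.04 and 9.95 in RWDD4 clones 17, 24, 5 and 6, against 6.23, 7.0, 7.25 and 7.47 in control clones 2, 3, 4 and 5. It rose by 2.91 (SE 0.22), 7.52-fold, with an adjusted p of 5.26e-05, and ranked second among all genes by size of rise, after RWDD4. The gap between the groups was over 2 log2 units, and the SD was 0.14 in RWDD4 clones and 0.54 in control clones. TOP2B, which is also made by cells that do not divide, was at 9.21, 8.71, 9.11 and 8.95 in RWDD4 clones 17, 24, 5 and 6, against 5.71, 7.06, 6.96 and 7.20 in control clones 2, 3, 4 and 5. It rose by 2.26 (SE 0.28), 4.80-fold, with an adjusted p of 0.000165.

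CDCA2, or Repo-Man, brings a phosphatase to anaphase chromatin. It was at 8.09, 7.53, 8.20 and 8.30 in RWDD4 clones 17, 24, 5 and 6, against 5.12, 5.48, 6.04 and 6.13 in control clones 2, 3, 4 and 5, a rise of 2.34 (SE 0.23, adjusted p 7.2e-05). MKI67, the Ki-67 antigen that coats mitotic chromosomes and marks proliferating cells, was at 10.32, 10.37, 10.51 and 10.22 in RWDD4 clones 17, 24, 5 and 6, against 7.77, 8.49, 8.99 and 8.73 in control clones 2, 3, 4 and 5. It rose by 1.86 (SE 0.22), 3.63-fold, with an adjusted p of 0.000121. In both genes all RWDD4 clones lay more than 1 log2 unit above the highest control clone.

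The 4 genes of the spindle and of cytokinesis also rose (median 2.0). ECT2 activates RhoA at the division plane. It was at 9.62, 9.74, 10.24 and 10.09 in RWDD4 clones 17, 24, 5 and 6, against 6.31, 7.33, 7.66 and 7.92 in control clones 2, 3, 4 and 5, a rise of 2.61 (SE 0.30, adjusted p 0.000112), or 6.12-fold. CKAP2, a spindle microtubule protein, was at 8.21, 7.91, 8.34 and 8.22 in RWDD4 clones 17, 24, 5 and 6, against 5.21, 5.52, 5.87 and 6.21 in control clones 2, 3, 4 and 5, a rise of 2.47 (SE 0.19, adjusted p 5.26e-05). Neither gene overlapped between groups. NUSAP1, which bundles microtubules near chromosomes, rose by 1.54. Its SD of 0.08 in RWDD4 clones stood against 0.56 in control clones. CDCA8, or borealin, of the chromosomal passenger complex, was at 10.17, 10.10, 10.31 and 10.41 in RWDD4 clones 17, 24, 5 and 6, against 9.50, 9.12, 9.81 and 10.08 in control clones 2, 3, 4 and 5. It rose by 0.62 (SE 0.18, adjusted p 0.0169), and control clone 5 lay next to the lowest RWDD4 clone.

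Of the 4 genes that share only the CDCA name 3 rose and 1 fell (median 0.51). CDCA7, a partner of the chromatin remodeller HELLS, was at 6.62, 6.35, 6.75 and 7.03 in RWDD4 clones 17, 24, 5 and 6, against 5.63, 6.00, 5.56 and 6.05 in control clones 2, 3, 4 and 5, and rose by 0.87 (SE 0.16, adjusted p 0.00144). Its relative CDCA7L rose by 0.64. CDCA3, which promotes entry into mitosis, rose by 0.38 with overlapping groups (adjusted p 0.0433), and lost its call under 12 of the 18 alternatives. CDCA4, a nuclear protein linked to E2F, was at 8.81, 8.74, 8.78 and 8.50 in RWDD4 clones 17, 24, 5 and 6, against 9.22, 8.79, 9.22 and 9.07 in control clones 2, 3, 4 and 5. It fell by 0.37 (SE 0.12, adjusted p 0.0269) with overlapping groups, and did not pass without RWDD4 clone 6, at -0.30, without control clone 2 or 4, at -0.32 each, or with the span trend removed, at -0.25. CENPV, a microtubule-binding protein gene, lay at 3.96, 4.27, 4.02 and 4.09 in RWDD4 clones 17, 24, 5 and 6, against 4.55, 4.22, 4.53 and 4.22 in control clones 2, 3, 4 and 5. The groups overlapped and the difference of -0.30 (SE 0.11) did not pass, though 6 of the 18 alternatives called it lower.

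The other 7 members are pseudogenes or non-coding transcripts taken in by their names, and 1 of them rose. STAG3L4 was at 5.69, 6.08, 6.25 and 5.97 in RWDD4 clones 17, 24, 5 and 6, against 5.10, 5.51, 5.62 and 5.36 in control clones 2, 3, 4 and 5, a rise of 0.60 (SE 0.14, adjusted p 0.00609). STAG3L2 was at 6.28, 6.57, 6.36 and 6.61 in RWDD4 clones 17, 24, 5 and 6, against 6.70, 6.44, 6.21 and 6.36 in control clones 2, 3, 4 and 5, a difference of 0.03 that turned negative under each of the 3 scalings tried (quantile, median, cyclic loess). STAG3L1, STAG3L3, the read-through transcript STAG3L5P-PVRIG2P-PILRB and CENPBD2P lay between -0.29 and -0.12. The STAG3L pseudogenes are near copies of STAG3, so probe sets of these genes may share signal and their values are uncertain.

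Unequal change was also tested between partner or paralogous members, 7 pairs in all, on the difference within each array. SGO1 exceeded SGO2 by 1.39 (SE 0.31), SMC2 exceeded SMC4 by 0.87 (SE 0.10), SMC3 exceeded SMC1A by 0.80 (SE 0.21) and TOP2A exceeded TOP2B by 0.65 (SE 0.14). In these 4 pairs the exact permutation p was 0.0286, the smallest possible, and 0.05 adjusted over the 7, so none was under the threshold. STAG1 against STAG2, at -0.38 (SE 0.19), SMC5 against SMC6, at -0.36 (SE 0.18), and CDCA7 against CDCA7L, at 0.23 (SE 0.25), had exact permutation p of 0.114, 0.0857 and 0.457. For the last 3 pairs this test did not tell the difference from none.

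**Figure D4:**
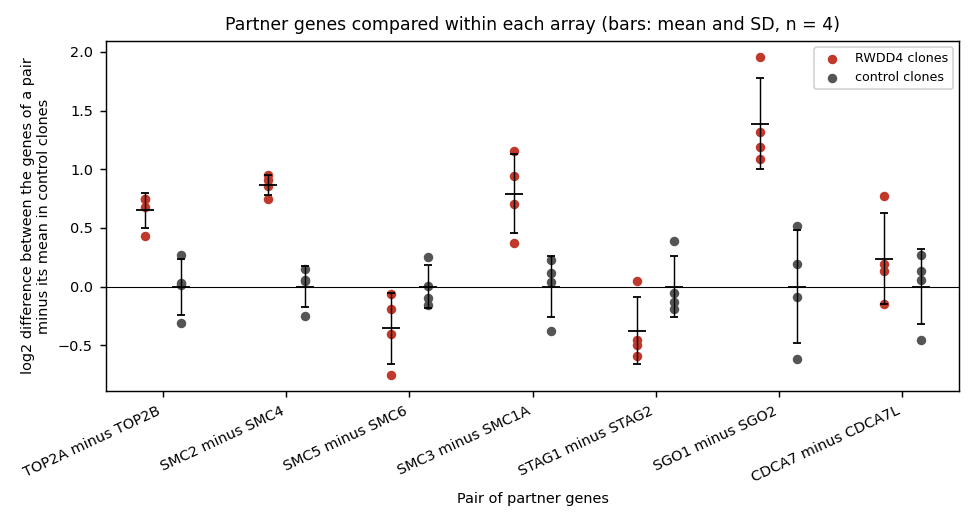
Log2 difference between the genes of 7 pairs within each array, minus its mean in the control clones, for RWDD4 clones (red) and control clones (grey), with mean and SD of 4 clones. The groups lie apart for TOP2A with TOP2B, SMC2 with SMC4, SMC3 with SMC1A and SGO1 with SGO2.

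Means under 4.92, the median of all probe sets, occurred in control clones for 9 of the 56 genes, among them SMC5, SMC6, SGO2, STAG1, CENPC and CENPK, which rose. The table holds no background level, and it was not determined whether their folds are lower bounds. Whether low levels affect the pair differences that include these genes, such as SGO1 against SGO2, was not tested.

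Genes that rose spanned more genomic sequence than those that did not. The median span was 45.04 kb for the 40 genes called higher, 11.5 kb for the 3 called lower and 20.0 kb for the 13 others, beside 48.4 kb for all genes called higher and 11.3 kb for all genes called lower. Of those 13 others 6 are pseudogenes or non-coding transcripts. Across the 56 genes, which share the same arrays, span and difference had a Spearman rho of 0.55, across the 49 protein-coding members 0.48, and over all genes 0.36. When all genes were ordered by span and cut into 4 equal bins, the shortest bin held 2 members, of which 0 rose (against 5.11% of all genes there), and the next 14, of which 6 rose (17.2%). The bin from 20.7 to 58.3 kb held 26, of which 21 rose (34.6%), and the longest 14, of which 13 rose (43.6%). STAG1, at 416 kb, and CENPP, at 295 kb, had the longest spans, while ZWINT and CENPX, at 4.05 and 4.18 kb, had the shortest. With each array's trend over span removed, all 40 higher calls were kept, ZWINT was added at 0.42, and the median difference was 0.98.

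**Figure D5:**
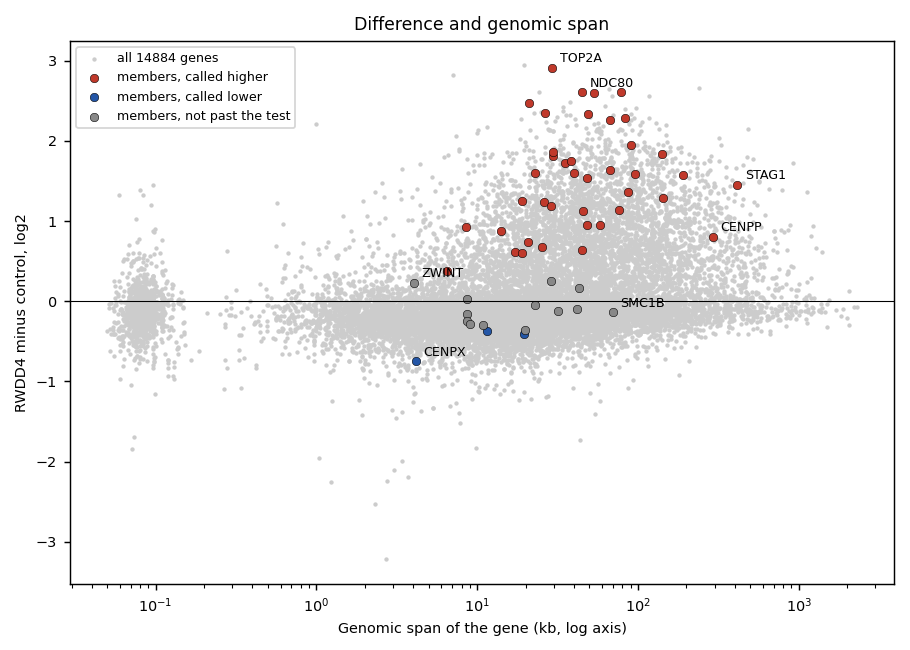
Difference between RWDD4 and control clones on the log2 scale against genomic span in kb (log axis) for all 14884 genes (light grey) and the 56 members (coloured by call). Members called lower lie at spans of 4.18 to 19.5 kb, and most members above 20.7 kb lie well above 0.

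The same machinery was also read through 41 measured genes of 50 listed that the name rule does not take. Of these 32 rose and 2 fell, against 25.1% and 21.6% of all genes, with a median of 1.06, against -0.08. The list was drawn up with earlier results of these data known and was read on the same arrays. Its counts are thus a description and not independent support. KIF23 of the central spindle rose by 2.42, KNL1, the kinetochore scaffold for the checkpoint, by 2.32, the checkpoint kinase TTK by 2.32 and the checkpoint kinase BUB1 by 2.27. MAD1L1, which carries MAD2 to kinetochores, fell by 0.41, and MAU2, the partner of NIPBL in cohesin loading, fell by 0.31 where NIPBL rose by 1.57. Of the passenger complex, AURKB and BIRC5 lay at -0.02 and 0.35 and did not pass, INCENP passed at 0.41 (adjusted p 0.0470), and CDCA8 at 0.62. ITGB3BP, the CENP-R subunit that sits with CENP-Q and CENP-U, rose by 1.0. Of 5 measured genes of the SMC5/6 complex or its recruitment, SLF1, EID3, NSMCE4A and NSMCE1 rose by 1.36, 1.06, 0.96 and 0.45, and NSMCE3, at 0.15, did not pass.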

How the data were processed

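RNA of 8 PC-3 clones was measured on 8 Affymetrix arrays. The deposited values are log2 levels, 1 for each probe set on each array. RMA and Partek are named in the submitters' processing notes, with neither version nor settings. The genome build is not given in the sources used here. Of 53617 probe sets, 16098 had exactly 1 gene symbol in the platform annotation and stood for 14884 genes, all matched by gene ID to the GRCh38.p14 gene table. The probe set with the highest mean stood for a gene. Of 28 pairs of arrays 0 were identical. With 4 arrays a group, precision is limited by their number.

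RWDD4 minus control was fitted over all genes in limma (version 3.58.1, R 4.3.3; lmFit, then eBayes), two-sided, with Benjamini-Hochberg adjustment over all genes, a gene being called at an adjusted p under 0.05. Errors are SD over clones or SE of the fitted difference. Differences within arrays used exact permutation. Members and lists were chosen with earlier results of these data known. Values in every clone are given for the 12 largest rises, all falls, and the largest and smallest difference in each role group. Alternatives were the variance model, mean over probe sets, a mean level of at least 5, 3 scalings, array weights, all probe sets, each clone left out, the lowess trend (span 0.3) over log2 genomic span removed, and the within-group axis as covariate. The labels do not say that clones came from separate infections.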

Additional observations from a re-analysis of the deposited data

Results flagged for a closer look

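In 114 groups of 4 clones (56 genes and RWDD4, in each group), 8 had a clone whose gap to the nearest other clone exceeded the critical share of the group's range (Dixon's test). Chance gives about 1 in 20. RWDD4 clone 6 was lowest for RWDD4 itself at 9.87 (others 10.42 to 10.46) and for CENPM at 7.81 (others 8.01 to 8.04), and RWDD4 clone 5 for SKA1 at 7.97 (others 8.74 to 8.81). Control clone 2 was lowest in the other 5: SMC3 at 5.75 (others 7.04 to 7.13), SMC1A at 7.96 (others 8.75 to 8.83), SMC6 at 4.22 (others 5.06 to 5.19), TOP2B at 5.71 (others 6.96 to 7.20) and CDCA7L at 7.08 (others 7.64 to 7.74). Without control clone 2, TOP2B and SMC6 kept their higher calls, at 1.92 and 1.72.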

How the results depend on the processing

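Over the alternatives other than the within-group axis, 39 to 41 of the 56 genes were called higher, 40 as reported, and 39 to 41 when a clone was left out. The genes called lower, 3 as reported, numbered 5 at a mean level of at least 5, 9 after quantile normalization, 8 after median centring, 7 after cyclic loess and 5 with array weights, and 2 to 5 when a clone was left out. The median difference of 1.13 was 0.95 to 1.21 when a clone was left out and 0.98 with the span trend removed.

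With the within-group axis as covariate 0 were called higher and 0 lower, the median was 0.33, the listed pathway genes gave 0 higher and 0 lower calls, RWDD4 lay at 1.88, SMC4 at -0.035 and CENPV at 0.072. Because the groups lay apart on this axis, the fit cannot separate it from the group, and the cause was not tested. STAG3L2 lay at -0.16 after quantile normalization, -0.10 after median centring, -0.036 after cyclic loess, and -0.044 (without control clone 4) to 0.118 (without control clone 2) when a clone was left out, also below 0 without RWDD4 clone 24 or 6. CDCA5 lay at -0.091 (without control clone 3) to 0.0053 (without control clone 4) when a clone was left out. All genes gave 3741 higher and 3214 lower calls, 3229 and 4332 after quantile normalization, and 3307 and 5765 after median centring, where the median of all genes was -0.21. No paired analysis was possible because each clone is a separate isolate, and the clone number that the groups share marks no pair.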
